A study of Canis lupus familiaris with 14 samples.

Results

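The genes BCL6, MME, LMO2 and BACH2 belong to the programme of germinal-centre B cells, and PRDM1, XBP1, CD38, SDC1 and JCHAIN to that of plasma cells. Their signals were read on 14 GeneChip canine arrays of dog lymph nodes, where each probe set yields 1 signal for a transcript. Members were the probe sets that the gene table of the array annotates with exactly 1 of these symbols, which gave 14 probe sets for 9 genes, of 29254 probe sets and 15115 genes in all. LMO2, CD38 and XBP1 had 2 probe sets each and JCHAIN had 3, which were averaged on the log2 scale, while the other 5 genes had 1 probe set each.

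A germinal centre is the part of a lymph node where activated B cells divide, mutate their antibody genes and are selected. BCL6, a transcriptional repressor, holds a B cell in that state and represses PRDM1, and PRDM1 in turn shuts down the B-cell programme when a cell begins to secrete antibody. XBP1 then expands the endoplasmic reticulum for protein export. In human lymphomas, high BCL6, MME and LMO2 mark a germinal-centre type of tumour, and BCL6 and PRDM1 also act in T cells.

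The 10 lymphoma arrays came from fine needle aspirates of owned dogs, taken at 3 clinics before a PI3K inhibitor was given. The dogs labelled B-cell lymphoma were FS21 (a Pitt Bull Terrier and Labrador mix), NE41 (a Boxer and Pitt Bull mix), NE42 (Labrador Retriever), RB03 (Pointer), RB07 and RB10 (both Boxer) and RB16 (Chesapeake Bay Retriever), and those labelled T-cell lymphoma were FS22 (Beagle), FS25 (Boxer) and NE45 (Golden Retriever). FS21, RB07, FS22 and FS25 had relapsed after chemotherapy. The 4 normal nodes came from 3 disease-free Beagles of a colony, with 1 node each from dogs 2970 and 63, and both 3024l and 3024r from dog 3024. The study sorted the lymphomas into class E-J (FS21, FS22, NE41, NE42, RB03 and RB16) and class K-N (FS25, NE45, RB07 and RB10) from the profiles of all genes, so values by class are given here with no test. Normal nodes differed from lymphomas in housing and clinic as well as in disease, and in breed from all but FS22, and these cannot be told apart.

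Some arrays went against their labels in part of the lineage markers. CD79B encodes a signalling subunit of the B-cell receptor, with a log2 signal of 2.20 in RB07 and 7.39 in RB10, both labelled B-cell, against 2.91 in FS25 and 6.20 in NE45, both labelled T-cell. FS22, also labelled T-cell, had a CD79B signal of 10.47, inside the range of 9.76 to 11.00 of the other E-J lymphomas, although its signal for MS4A1, the B-cell surface protein CD20, was 4.90 against at least 12.02 in each of them. MS4A1 had a log2 signal of 2.89 in RB07 and 10.40 in RB10, against 6.48 in FS25 and 10.89 in NE45, so RB10 and NE45 both lay inside the normal range of 9.88 to 11.17. CD79A, whose protein the study stained to designate a B-cell type, had 8.06 in RB07, 8.11 in RB10 and 10.09 in FS22. RB07 and RB10 thus lay above NE45 at 7.87 and FS25 at 2.55, in the order of their labels. Both lay below the lowest normal node, 2970 at 9.75. CD3E, which encodes a signalling subunit that T cells carry, reached 12.11 in RB07 and 12.54 in RB10, near the 12.48 in FS25 and 12.56 in NE45, and had 8.80 in FS22. Node 3024l had a 3' to 5' ratio of 23.2 for the GAPDH control probe sets, against 3.30 to 8.94 on the other arrays, a sign of RNA read mostly at its 3' end. The median signal of an array lay between 85.5 and 130.9, and 47.2% to 55.7% of its probe sets reached a signal of 100, the level under which a signal was treated as dim. The number of arrays limits the precision of every value.

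BCL6 separated the lymphoma classes, LMO2 did so in the opposite direction, and PRDM1, XBP1, CD38 and JCHAIN were lower in both classes than in every normal node. Of the 9 genes, 5 were lower in all 6 E-J lymphomas than in all 4 normal nodes, namely BCL6, PRDM1, XBP1, CD38 and JCHAIN. The same held for 7.97% of the 9400 genes compared, and none of the 9 genes was higher in every E-J lymphoma, against 7.26% of all genes. In K-N, 6 of the 9 genes were lower in all 4 lymphomas than in all normal nodes, namely MME, LMO2, PRDM1, XBP1, CD38 and JCHAIN, against 9.12% of all genes, and none was higher, against 6.93%. MME missed the E-J count only because FS22, at 9.51, lay above node 3024l, at 8.79. CD38 entered the K-N count narrowly, with FS25 at 8.39 and 3024l at 8.40. Between E-J and K-N, only BCL6 (lower in E-J) and LMO2 (higher in E-J) did not overlap, against 4.45% and 6.26% of all genes in those directions. In bulk aspirates, fewer cells of a type and less RNA per cell cannot be told apart.

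**Figure D1:**
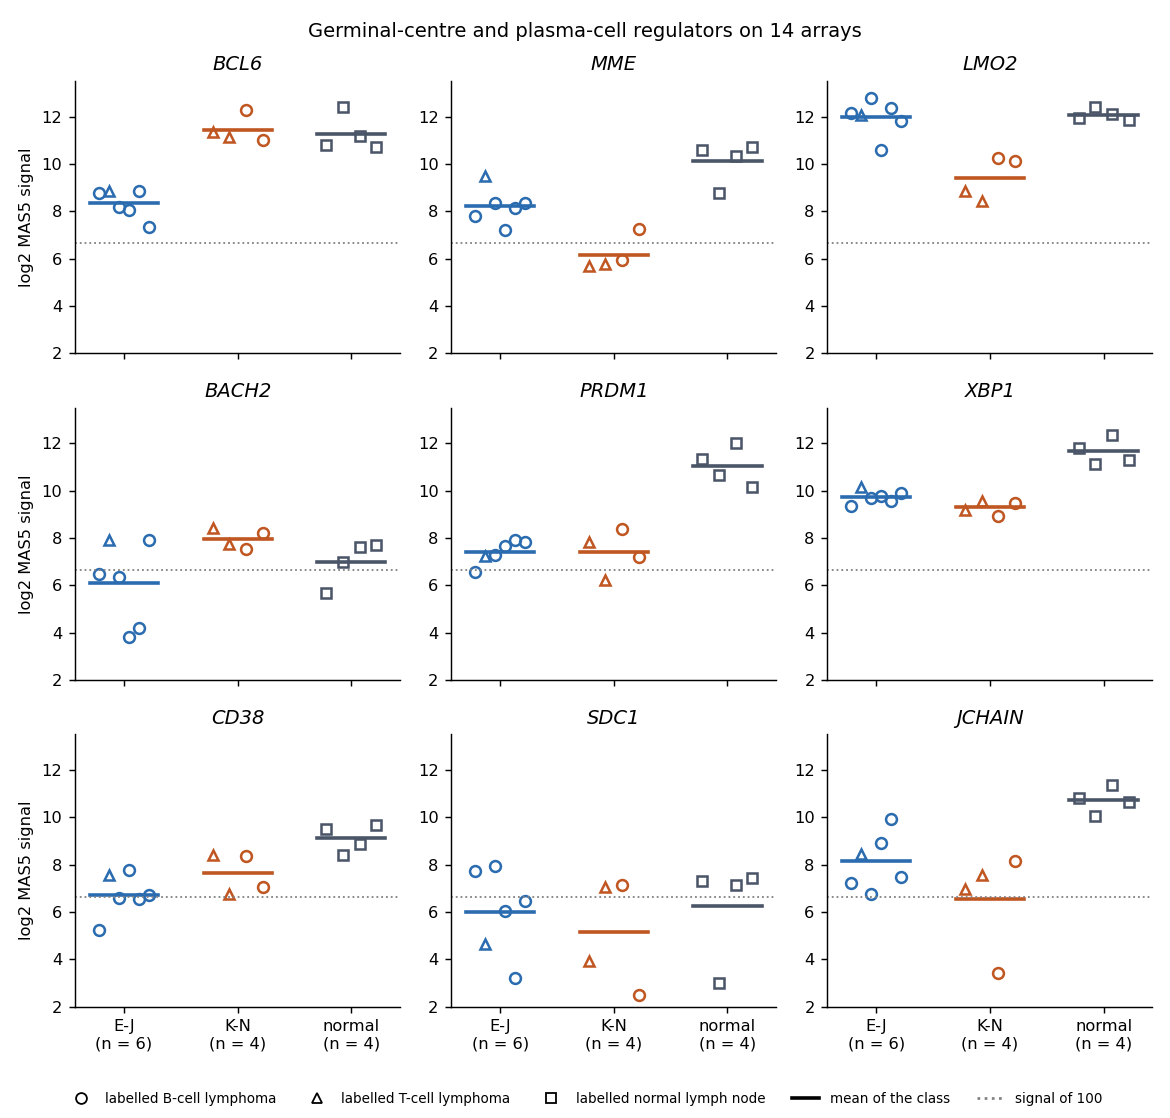
Log2 MAS5 signal (vertical axis) of the 9 genes on each array, by class E-J, class K-N and normal node, with 1 symbol per array (circles for B-cell labels, triangles for T-cell labels, squares for normal nodes), a bar at the class mean and a dotted line at a signal of 100. BCL6 sits between 7.32 and 8.85 in E-J and at 10.71 or more on all other arrays, and PRDM1 reaches 10.15 or more only in the normal nodes.

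BCL6 (Entrez Gene 488124) had log2 signals of 7.32 at the lowest, 8.47 at the median and 8.85 at the highest of the 6 E-J lymphomas. In K-N it had 11.34 in FS25, 11.15 in NE45, 12.26 in RB07 and 11.01 in RB10, and in normal nodes 10.79 in 2970, 12.40 in 3024l, 11.17 in 3024r and 10.71 in 63. All E-J lymphomas lay below all other arrays, the T-labelled FS22 included, while K-N overlapped the normal nodes. The E-J mean of 8.34 ± 0.61 (SD, n = 6) was 7.64-fold below the normal mean of 11.27 ± 0.78 (SD, n = 4) and 8.61-fold below the K-N mean of 11.44 ± 0.56 (SD, n = 4). K-N minus normal was 0.17 on the log2 scale. BCL6 also directs follicular helper T cells, and T-cell marker signals summed over 15 genes to between 3450 and 16129 in E-J, 55231 and 74596 in K-N, and 16045 and 35665 in normal nodes. Whether these cells account for the BCL6 signal was not tested.

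LMO2 (Entrez Gene 609006), a LIM-domain adaptor of transcription complexes in blood stem cells and germinal-centre B cells, ran the other way. Its log2 signals in E-J were 10.59 at the lowest (NE42), 12.12 at the median and 12.77 at the highest (NE41). In K-N they were 8.87 in FS25, 8.45 in NE45, 10.24 in RB07 and 10.13 in RB10, and the normal nodes had 11.93 in 2970, 12.38 in 3024l, 12.10 in 3024r and 11.87 in 63. Every K-N lymphoma was below every other array, and within K-N both arrays labelled B-cell were above both labelled T-cell. E-J averaged 11.96 ± 0.75 (SD, n = 6) and normal nodes 12.07 ± 0.23 (SD, n = 4), which overlapped, with a log2 difference of -0.11 that turned to 0.19 on the brighter of its 2 probe sets. The K-N mean of 9.42 ± 0.90 (SD, n = 4) was 6.27-fold below that of normal nodes, and the E-J mean was 5.81-fold above that of K-N. B-cell marker signals summed to 14436 to 33215 in E-J, 595 to 3290 in K-N and 6496 to 10626 in normal nodes over 10 genes. Within K-N, RB07 had the highest LMO2 signal and the lowest of these sums, 595, beside 630 in FS25. By mean log2 signal over the 10 genes FS25 was the lower, with 4.30 against 4.44 in RB07. The part of B cells in the LMO2 level was not tested.

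MME (Entrez Gene 477120) encodes the surface peptidase neprilysin, known as CD10, which germinal-centre B cells, stromal cells and neutrophils carry. Its log2 signals in E-J were 7.21 at the lowest, 8.24 at the median and 9.51 at the highest (FS22), and in K-N they were 5.70 in FS25, 5.76 in NE45, 5.92 in RB07 and 7.26 in RB10. The normal nodes had 10.57 in 2970, 8.79 in 3024l, 10.32 in 3024r and 10.73 in 63. K-N lay below all normal nodes, and with signals under 100 taken as 100 it was at least 9.89-fold lower on average. E-J averaged 8.22 ± 0.76 (SD, n = 6) against 10.10 ± 0.89 (SD, n = 4) in normal nodes, and 5 of its 6 lymphomas lay below every normal node. The exception was FS22, which lay above 3024l. E-J and K-N overlapped through NE42 and RB10 only, with a log2 difference of 2.06.

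BACH2 (Entrez Gene 481923), a repressor that delays the plasma-cell fate and keeps T cells unspent, was near the limit of detection, with a signal of at least 100 on 9 of the 14 arrays. In E-J its log2 signal was 3.83 at the lowest, 6.41 at the median and 7.92 at the highest, with a signal of at least 100 only in FS22 and RB16. In K-N it was 8.41 in FS25, 7.75 in NE45, 7.54 in RB07 and 8.20 in RB10, above 100 on each, and in normal nodes it was 5.66 in 2970, 6.99 in 3024l, 7.64 in 3024r and 7.72 in 63. All 3 groups overlapped. The E-J minus K-N difference was -1.86 on the log2 scale, and it was -0.91 with signals raised to 100.

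PRDM1 (Entrez Gene 481947) encodes BLIMP-1, the repressor that drives B cells to become plasma cells. Its log2 signals in E-J were 6.54 at the lowest, 7.47 at the median and 7.90 at the highest. K-N had 7.84 in FS25, 6.21 in NE45, 8.36 in RB07 and 7.21 in RB10, and the normal nodes had 11.35 in 2970, 10.64 in 3024l, 11.995 in 3024r and 10.15 in 63. All 10 lymphomas lay below all normal nodes, with the highest lymphoma, RB07, below the lowest normal node, 63. With signals under 100 taken as 100, E-J was at least 12.2-fold and K-N at least 11.5-fold below the normal nodes. The class means were 7.41 ± 0.51 (SD, n = 6) in E-J and 7.41 ± 0.92 (SD, n = 4) in K-N, so the lymphoma classes that BCL6 separated overlapped in PRDM1.

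XBP1 (Entrez Gene 477532), the transcription factor that raises endoplasmic reticulum capacity, had the smallest SD of the 9 genes within either lymphoma class. Its log2 signals were 9.37 at the lowest, 9.72 at the median and 10.14 at the highest in E-J. K-N had 9.18 in FS25, 9.57 in NE45, 8.94 in RB07 and 9.46 in RB10, and the normal nodes had 11.81 in 2970, 11.14 in 3024l, 12.36 in 3024r and 11.31 in 63. All 10 lymphomas were below all normal nodes. The E-J mean of 9.73 ± 0.27 (SD, n = 6) was 3.78-fold and the K-N mean of 9.29 ± 0.28 (SD, n = 4) was 5.16-fold below the normal mean of 11.65 ± 0.55 (SD, n = 4). Between the lymphoma classes, 4 of the 6 E-J lymphomas lay above every K-N lymphoma.

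CD38 (Entrez Gene 403756) encodes an ectoenzyme of plasma cells, germinal-centre B cells and activated T cells. Its log2 signals in E-J were 5.22 at the lowest, 6.64 at the median and 7.77 at the highest, with 3 of the 6 arrays at a signal of at least 100. K-N had 8.39 in FS25, 6.76 in NE45, 8.35 in RB07 and 7.07 in RB10, and normal nodes had 9.52 in 2970, 8.40 in 3024l, 8.89 in 3024r and 9.67 in 63. E-J was clear of the normal nodes and at least 4.37-fold lower on average, whereas FS25 in K-N, at 8.39, lay just below normal node 3024l, at 8.40. K-N was 2.79-fold lower on average than the normal nodes, and either CD38 probe set alone gave an overlap between them.

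JCHAIN (Entrez Gene 475166) encodes the chain that joins antibody units into IgM and IgA polymers and is made in plasma cells. Its log2 signals in E-J were 6.77 at the lowest, 7.98 at the median and 9.94 at the highest (RB03). K-N had 6.96 in FS25, 7.57 in NE45, 3.43 in RB07 and 8.14 in RB10, and normal nodes had 10.80 in 2970, 10.07 in 3024l, 11.35 in 3024r and 10.66 in 63. All lymphomas were below all normal nodes, with RB03 just below 3024l and RB07 far below the rest. The RB07 value averages dim log2 signals of 0.72 and 1.61 with 7.95 on the brightest probe set. On that probe set RB07 lay above FS25, at 7.70. E-J was 5.99-fold lower and K-N at least 10.5-fold lower than normal nodes on average. JCHAIN had the widest range of the 9 genes over the arrays, 7.92 on the log2 scale, with the dim RB07 value at its low end.

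SDC1 (Entrez Gene 482986), the proteoglycan syndecan that marks mature plasma cells and also epithelium, reached a signal of 100 on 7 of the 14 arrays. Its log2 signals in E-J were 3.20 at the lowest, 6.23 at the median and 7.94 at the highest. K-N had 3.93 in FS25, 7.04 in NE45, 7.13 in RB07 and 2.495 in RB10, and normal nodes had 7.31 in 2970, 3.02 in 3024l, 7.16 in 3024r and 7.44 in 63. All groups overlapped, but K-N and normal nodes did so only through 3024l, the array with the GAPDH ratio of 23.2.

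BCL6 and PRDM1 repress one another in B cells, and their joint position differed by class. The difference of their log2 signals cannot be read as a ratio of transcripts, since probe sets differ in efficiency, but it can be set between arrays. In E-J it ran between -0.53 (RB16) and 2.21 (FS21). In K-N it was 3.49 in FS25, 4.94 in NE45, 3.91 in RB07 and 3.80 in RB10, above every other array, and in normal nodes it was -0.56 in 2970, 1.76 in 3024l, -0.82 in 3024r and 0.56 in 63, so E-J and normal nodes overlapped. E-J joined low signals of both, K-N joined a BCL6 signal in the normal range with a low PRDM1 signal, and normal nodes had both high.

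**Figure D2:**
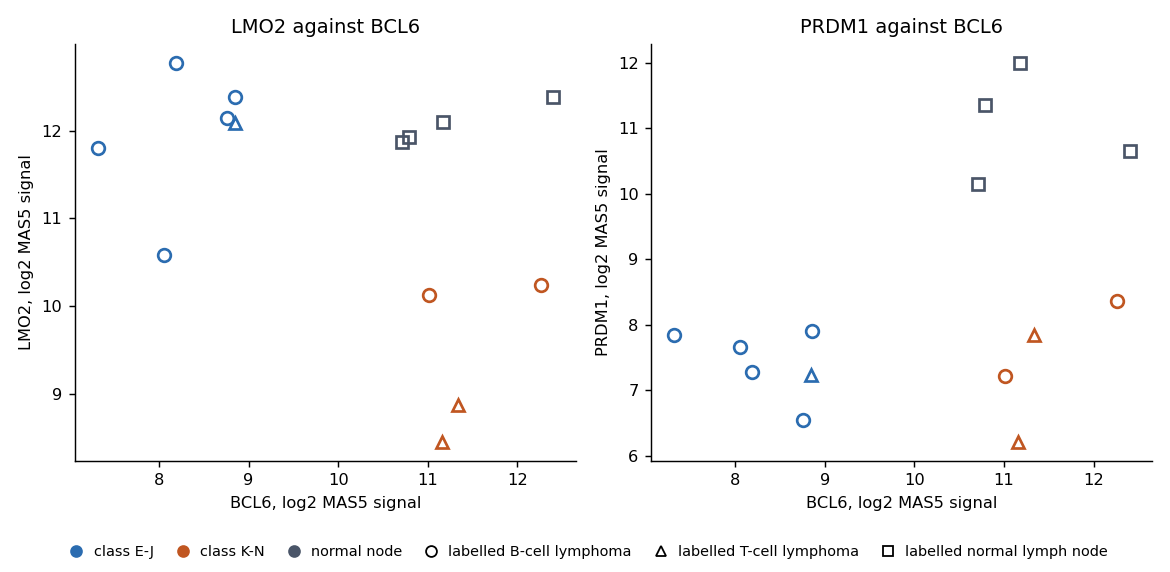
Log2 MAS5 signal of LMO2 (left) and PRDM1 (right) against that of BCL6 on each of the 14 arrays, with blue for E-J, orange for K-N and grey for normal nodes, and circles, triangles and squares for arrays labelled B-cell, T-cell and normal. Each class fills its own corner, with E-J at low BCL6 and high LMO2, K-N at high BCL6 and low LMO2, and normal nodes high in both and in PRDM1.

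Differences between label groups were tested with limma over all genes with a signal of at least 100 on at least 3 arrays of the comparison, with Benjamini-Hochberg adjustment of p-values. One comparison set the B-cell lymphomas that the study chose, FS21, NE42, RB03 and RB16, against normal nodes 63, 2970 and 3024r, the last taken here for dog 3024, and 6 of the 9 genes fell at an adjusted p under 0.05, against 7.39% of the 8295 genes tested. The lymphomas were picked partly for a lack of T-cell signal in their profiles, so their selection is not independent of expression. MME differed by -2.67 on the log2 scale (standard error 0.31, adjusted p = 0.00677), with lymphomas at 7.87 ± 0.49 (SD, n = 4) and normal nodes at 10.54 ± 0.21 (SD, n = 3). PRDM1 had -3.68 (standard error 0.52, adjusted p = 0.0104) and XBP1 -2.18 (standard error 0.30, adjusted p = 0.0104). BCL6 had -2.65 (standard error 0.41, adjusted p = 0.0135), with lymphomas at 8.24 ± 0.71 (SD, n = 4) and normal nodes at 10.89 ± 0.25 (SD, n = 3). CD38 had -2.80 (standard error 0.56, adjusted p = 0.0259) and JCHAIN -2.54 (standard error 0.66, adjusted p = 0.0499). In each of these 6 genes all 4 lymphomas lay below all 3 normal nodes, against 18% of all genes tested. LMO2 (log2 difference -0.24, adjusted p = 0.734), BACH2 (-1.41, adjusted p = 0.402) and SDC1 (-1.45, adjusted p = 0.334) did not pass. None of the 6 calls held without 2970 or without 3024r, where adjusted p-values ran from 0.0515 to 0.169, and the 3 for BCL6, CD38 and JCHAIN were also lost without 63 (0.0594, 0.0984 and 0.124), while every difference kept its sign.

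All 7 lymphomas labelled B-cell were then set against 3 normal dogs, taking the mean of 3024l and 3024r for dog 3024. These arrays include those of the comparison above, so the results are not independent. PRDM1, XBP1 and MME fell, 3 of the 9 genes against 1.57% of the 8804 genes tested. PRDM1 averaged 7.54 ± 0.59 in lymphoma and 10.94 ± 0.69 in normal dogs (SD, n = 7 and 3), a difference of -3.40 on the log2 scale (limma, standard error 0.42, adjusted p = 0.00538). XBP1 had a difference of -2.10 (standard error 0.26, adjusted p = 0.00599) and MME one of -2.71 (standard error 0.52, adjusted p = 0.0300). CD38 (-2.39, adjusted p = 0.0624) and JCHAIN (-3.30, adjusted p = 0.134) missed the threshold, which CD38 passed without RB07 (adjusted p = 0.0237) or without 3024l (0.0465). In these 5 genes every lymphoma lay below every normal dog, against 6.62% of all genes tested. BCL6 had a difference of -1.89 with a standard error of 0.96 (adjusted p = 0.314), and its lymphoma SD of 1.77 spanned the high RB07 and RB10 and the low other 5. Without RB07 and RB10, which carry the T-cell markers, the BCL6 difference was -2.86, a choice made after seeing the data. The 5 lymphomas that remain are all of E-J, a class found from these same profiles, so no p-value is given for that difference. PRDM1 and XBP1 lost their calls without 2970 (adjusted p = 0.0637 and 0.0806). MME lost its own without NE42, FS21, 63, 3024r, 2970 or dog 3024 (adjusted p between 0.0511 and 0.208).

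The 7 lymphomas labelled B-cell and the 3 labelled T-cell gave no call among the 9 genes. Limma called 0 of 8567 genes (0%), with 313 (3.65%) at an unadjusted p under 0.05, none of the 9 among them. The methods' t-test called 0 at an adjusted p under 0.05. BACH2 had a log2 difference of -1.67 (standard error 0.94), LMO2 one of 1.64 (0.85) and BCL6 one of -1.24 (1.03), each with an adjusted p of 0.956. Without RB07, RB10 and FS22, whose CD79B and CD3E signals go against their labels, the log2 difference was -3.01 for BCL6, 3.28 for LMO2 and 2.23 for MME. Those arrays were left out for their expression after the data were seen. The 5 lymphomas that remain under the B-cell label are all of E-J, and both that remain under the T-cell label are of K-N. Since those classes were found from these same profiles, no p-value is given for the differences.

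**Figure D3:**
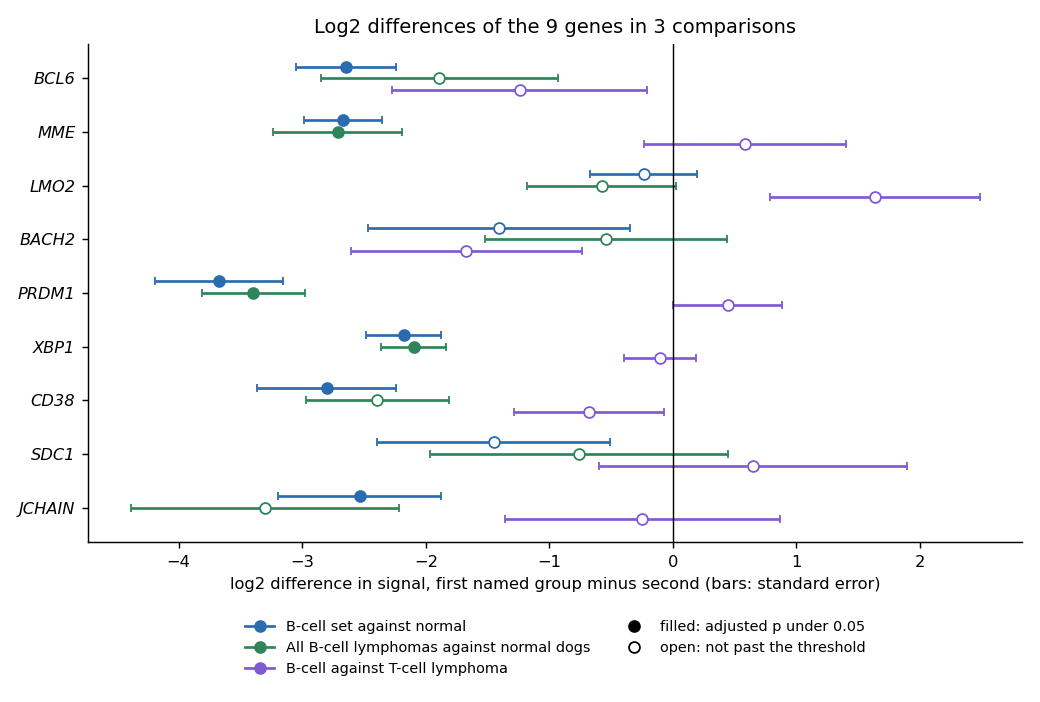
Log2 difference in signal (horizontal axis, bars for the standard error) of each of the 9 genes in 3 limma comparisons, the B-cell set of 4 against 3 normal nodes (blue), all 7 B-cell lymphomas against 3 normal dogs (green) and 7 B-cell against 3 T-cell lymphomas (purple), with filled points for an adjusted p under 0.05. PRDM1 has the lowest blue point at -3.68, and no purple point is filled.

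In their class means, probe sets of a gene mostly moved together. On single arrays they could part. The 2 CD38 probe sets had 3.27 and 7.17 in FS21 but, in the same order, 7.23 and 5.92 in NE41. The lowest CD38 value, in FS21, thus averages unlike signals. Both LMO2 probe sets were lower in K-N than in all normal nodes and in all E-J lymphomas, by 2.03 and 3.27 on the log2 scale against the normal means. The 3 JCHAIN probe sets had E-J minus normal differences of -1.20, -3.15 and -3.40 and K-N minus normal differences of -2.91, -4.82 and -4.85, and the first of them was under 100 on 6 arrays. On 1 JCHAIN probe set, RB03 at 9.82 lay above node 63 at 9.74, so that E-J and normal nodes overlapped there through this array only. XBP1 also had a disagreement that concerned a single array. Node 3024l had the highest signal of all arrays on 1 XBP1 probe set (13.44) and a signal of 8.83 on the other, below FS22 at 8.92, where the other normal nodes had 10.19 to 11.39. The second probe set therefore overlapped between E-J and normal nodes, and 3024l is the array with the GAPDH ratio of 23.2.

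**Figure D4:**
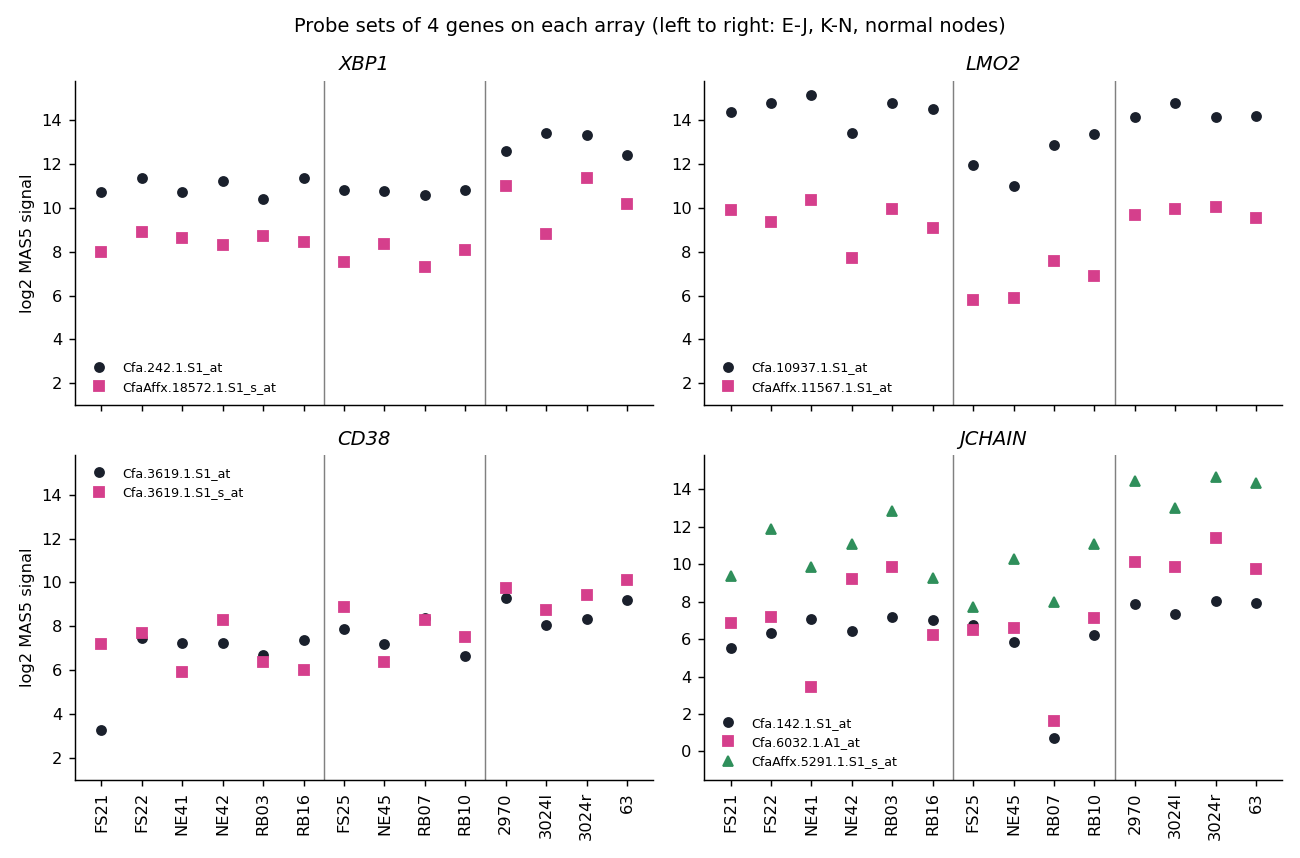
Log2 MAS5 signal of each probe set of XBP1, LMO2, CD38 and JCHAIN on each array, in the order E-J, K-N and normal nodes, with vertical lines between the classes. Heights of different probe sets are not comparable, and the steps between arrays differ in size between probe sets of a gene. Node 3024l parts the XBP1 probe sets at 13.44 and 8.83.

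Nodes 3024l and 3024r, from 1 dog, differed in 6 of the 9 genes by more than the range over 2970, 63 and 3024r. For these genes 3024l minus 3024r was 1.23 for BCL6, -1.54 for MME, 0.28 for LMO2, -1.22 for XBP1, -1.27 for JCHAIN and -4.14 for SDC1 on the log2 scale, where that range was 0.47 for BCL6, 0.41 for MME, 0.23 for LMO2, 1.05 for XBP1, 0.69 for JCHAIN and 0.29 for SDC1. PRDM1 differed by -1.35, less than its range of 1.85. The part of node and of RNA quality in these differences cannot be told apart.

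Other genes of each programme were read from lists. Of 31 germinal-centre genes, 24 were on the array and 21 were tested in the B-cell set against normal nodes, and 2 rose (3.48% of all genes did) and 1 fell (7.39% did) by limma, with a median log2 difference of 0.08 against -0.06 over all genes tested. STRBP, an RNA-binding protein high in germinal-centre cells, rose by 1.52 (adjusted p = 0.0124) and EBF1, a factor of B-cell identity, by 1.02 (adjusted p = 0.0376), while MARCKSL1, an actin regulator at the membrane, fell by 1.75 (adjusted p = 0.0300). ELL3, an elongation factor of B cells, had a difference of 1.33 and did not pass (adjusted p = 0.0552). Of the 21 genes, 6 were higher and 2 lower in all E-J than in all K-N lymphomas, against 6.26% and 4.45% of all genes, and ELL3 averaged 10.51 in E-J, 6.86 in K-N and 8.99 in normal nodes. SERPINA9 and S1PR2, a pair of germinal-centre genes, were under 100 on all lymphomas. RGS13, a regulator of G-protein signalling in germinal-centre B cells, was too, with a mean log2 signal of 3.55 in E-J and 6.18 in K-N, but it reached 100 on all 4 normal nodes, with a mean of 8.05.

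Among 15 plasma-cell genes tested in the same comparison, 2 fell and none rose, where 7.39% of all genes fell and 3.48% rose, and the median log2 difference was -1.33 on a list of 20. CD27, a receptor of memory B cells, plasma cells and T cells, fell by 3.15 (limma, adjusted p = 0.0104), and SLAMF7, a receptor of plasma cells and killer cells, fell by 1.32 (adjusted p = 0.0439). CREB3L2, a membrane-bound factor that serves secretion, had -2.90 (adjusted p = 0.0619) and CAV1, a membrane protein that endothelium also expresses, -2.44 (adjusted p = 0.0697). Over all 7 B-cell lymphomas none of the 15 passed, and none had a difference above 0 (median -1.32). The summed signal of 16 genes of the list was 10044 to 13948 in E-J and 7431 to 9621 in K-N, against 13992 to 25575 in normal nodes. Bright genes weigh most in such a sum. By mean log2 signal of the 16 genes E-J and normal nodes overlapped, with RB03 at 8.37 and 3024l at 8.36.

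The secretory pathway and the unfolded protein response hold many XBP1 targets. Of 32 of their genes tested in the B-cell set, 7 fell, against 7.39% of all genes, none rose and none had a difference above 0, with a median of -0.96. ERN1, the sensor kinase that splices XBP1 messenger RNA, had log2 levels of 3.84 ± 1.96 in the lymphomas and 9.52 ± 0.33 in the normal nodes (SD, n = 4 and 3, limma, adjusted p = 0.0180), and its lymphoma level is dim. DNAJB9, a chaperone of the endoplasmic reticulum, had -2.66 (adjusted p = 0.0110), HYOU1, another chaperone, -1.81 (adjusted p = 0.0414) and SEC24D, a coat protein of export vesicles, -1.91 (adjusted p = 0.0400). KDELR2, SEL1L and HERPUD1 were the others. Over all 7 B-cell lymphomas only DNAJB9 passed (-2.66, adjusted p = 0.0201), with a list median of -0.75.

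Corepressors and partners of BCL6 and BACH2 had a median of -0.07 over 10 tested genes of a list of 19. TBL1X, a subunit of the corepressor complex that BCL6 recruits, fell by 1.71 in the B-cell set (limma, adjusted p = 0.0128). MTA3, a corepressor subunit that BCL6 uses in germinal-centre cells, had 1.25 there (adjusted p = 0.0665) and rose by 1.46 over all 7 B-cell lymphomas (adjusted p = 0.0497), where 0.352% of all genes rose. None of the genes of these 4 lists passed between B-cell and T-cell labels.

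Markers of other cells moved in the same comparisons. In the B-cell set, 8 of 13 myeloid, 9 of 11 stromal, 5 of 7 endothelial, 8 of 14 T-cell and 1 of 4 epithelial markers fell and none rose, where 7.39% of all genes fell and 3.48% rose, with median log2 differences of -3.27, -2.72, -2.55, -2.59 and -1.24. Among B-cell markers 1 of 9 rose (MS4A1, 1.65, limma adjusted p = 0.0268) with a median of 0.95, and 3 of 10 proliferation markers rose. The summed myeloid signal over 14 genes was 9823 to 42065 in E-J and 9333 to 30462 in K-N, against 36635 to 94922 in normal nodes, and the stromal sum over 12 genes was 1604 to 5355 in E-J and 1573 to 7857 in K-N, against 12653 to 23489 in normal nodes. By mean log2 signal of the 14 myeloid genes every lymphoma, at most 9.18 (RB07), lay below every normal node, at least 9.52 (3024l). The neutrophil receptor CSF3R, the endothelial genes CDH5, TEK, CLDN5 and ESAM and the epithelial gene CLDN4 were under 100 on all 14 arrays. Macrophages, stroma and endothelium also express some of the genes that fell, PRDM1 and MME among them, and the part of these cells in the falls was not tested.

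**Figure D5:**
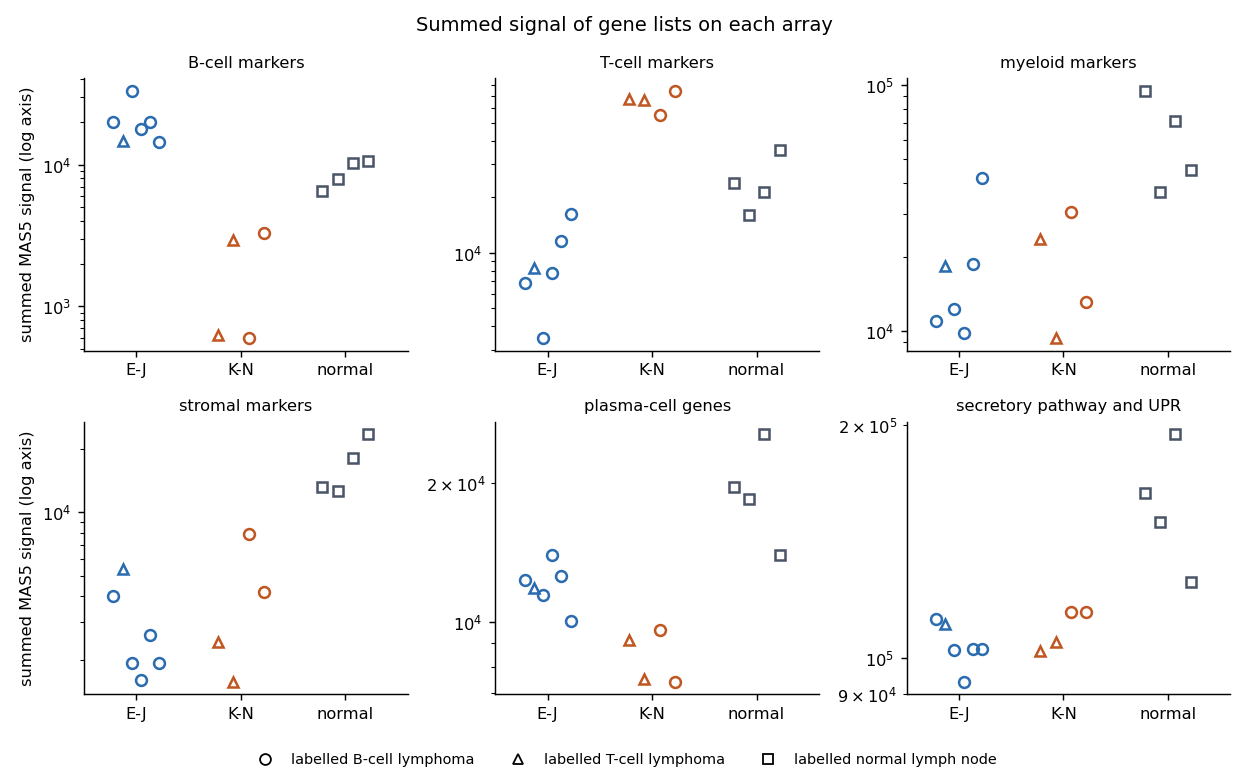
Summed MAS5 signal (log axis) of the B-cell, T-cell, myeloid and stromal marker lists, the plasma-cell genes and the secretory pathway and unfolded protein response (UPR) genes on each array, by class. Plasma-cell sums reach 13948 in E-J and start at 13992 in normal nodes, and stromal sums stay at or under 7857 in all lymphomas. Bright genes weigh most in a sum, and by mean log2 signal the plasma-cell genes overlap, with RB03 at 8.37 and 3024l at 8.36.

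The genes closest in profile to each member were found by the root-mean-square difference of gene-centred log2 signals over 13 dogs, among 9399 genes, as a description. PRDM1 was closest to C1QB (0.41) and C1QC (0.58), complement subunits made by macrophages, and to CD59 (0.62), where the median gene was 1.77 away. XBP1 was closest to SEL1L (0.36), a subunit of the machinery that clears misfolded proteins, then to PLCB4 (0.40) and TMEM51 (0.47). BCL6 was closest to CD4 (0.61), the helper T-cell coreceptor, then to MOSMO (0.62) and JUN (0.63), a stress-responsive transcription factor. CD4 averaged 7.30 in E-J and 10.17 in K-N, against 9.35 in normal dogs, the order that BCL6 also had. A shared order follows closely from picking CD4 as the nearest profile, so it is no separate result.

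LMO2 was closest to CD180 (0.53), a receptor of B cells, then to CYB561A3 (0.58) and PLEKHO1 (0.59). MME was closest to CXCL12 (0.64), a chemokine of stromal cells, then to NFIB (0.69) and LIFR (0.83). CD38 was closest to TXNIP (0.53), CPEB2 (0.58) and TYROBP (0.66), an adaptor of myeloid and killer cells. The remaining members, which were dim or varied widely, had more distant neighbours, with BACH2 at 0.75 from ZNRF3, JCHAIN at 0.84 from MEOX2 and SDC1 at 0.94 from TMEM268. These profiles share arrays and cell mixtures, and no p-value is attached to any of them.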

How the data were processed

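RNA of 14 lymph node aspirates was amplified with WT-Ovation Pico and hybridised to the canine array by the authors, who summarised probe intensities with MAS 5.0 and scaled each array to a trimmed mean of 500. The deposited values are these linear intensity signals per probe set. The version of MAS 5.0 and the batch of each array are not given in the sources used here.

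The log2 of each signal was used as it stood, and probe sets with exactly 1 symbol in the platform table were averaged per gene. LMO2 keeps the identifier of that table. A gene entered a comparison where 3 or more of its arrays had a signal of at least 100, and was tested with limma 3.58.1 in R 4.3.3 (lmFit, eBayes) and Benjamini-Hochberg adjustment over all such genes, at a threshold of 0.05. The test scripts were checked on simulated data. Plots came from Python 3.11.15 with matplotlib 3.10.9. A fold written as "at least" takes signals under 100 as 100. Arrays stand for dogs, except that 3024l and 3024r are nodes of 1 dog.

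The 9 members, the gene lists and the tests were chosen with earlier results of these data known. The genes named are the members, up to 4 genes of each list with the smallest p in the B-cell set, every further gene of the secretory list that passed there, the 3 genes nearest to each member in profile, and B- and T-cell markers. For BACH2, SDC1 and JCHAIN only the nearest is named, and the genes under 100 on all arrays or all lymphomas were named after their values were seen. Of the lists, T-cell, myeloid, stromal, endothelial, epithelial and proliferation markers are given as counts. Alternatives changed the filter, pseudocount, floor, scaling, gene summary, test, arrays in the fit and each array left out. No sequences were used here.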

Additional observations from a re-analysis of the deposited data

Results flagged for a closer look

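Normal node 3024l had an SDC1 log2 signal of 3.02, far from the other 3 normal nodes, which lay between 7.16 and 7.44. Its distance to the nearest of them was 0.94 of the range of the 4 nodes. The 9 genes were examined in each of the groups of 4 to 10 arrays, 18 sets of values in all, and only this one stood out, while chance alone gives about 1 in 20. The GAPDH 3' to 5' ratio of the same array was 23.2, and its part in the SDC1 value was not tested.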

How the results depend on the processing

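The B-cell set against normal nodes gave 902 genes past the threshold of 0.05. The methods' t-test was held to 0.05 here as well, where the study used a looser threshold. Other settings gave 1807 (signals raised to 100), 1613 (log2(signal + 50)), 419 (a single fit of all 14 arrays), 232 (3024l for 3024r), 193 (no filter) and 8 (the methods' t-test), and the count ran from 15 (without 2970) to 1207 with 1 array left out. It was 25 without 3024r, 70 without 63 and 593 without NE42. All 7 B-cell lymphomas against normal dogs gave 169, and 40 with no filter, 568 with log2(signal + 50), 708 with raised signals, 331 with the mean of linear signals, 461 with the methods' t-test and 664 without RB07 and RB10. With 1 array or dog left out it ran from 3 (without 2970) to 310 (without RB07), with 21 without dog 3024, 23 without 63, 97 without 3024r, 112 without NE42 and 297 without 3024l. B-cell against T-cell lymphoma gave 0, between 0 and 1 with 1 array left out and 267 without RB07, RB10 and FS22. For the 267 and the 664 above, arrays were left out for their expression after the data were seen. The B-cell lymphomas that remain in both fits are all of E-J, and the T-cell lymphomas behind the 267 are of K-N. Those classes were found from these same profiles, so the selection favours high counts and neither count is independent evidence. The cause of the spread in the other counts was not tested.

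No fall called for a member in either comparison with normal nodes changed sign. The methods' t-test lost all 6 calls of the B-cell set at 0.05 (adjusted p between 0.0564 and 0.136). The study applied this test with a looser false discovery rate threshold, and all 6 values lie under that threshold. The fit of all 14 arrays lost BCL6, MME and JCHAIN, no filter lost CD38 and JCHAIN, and 3024l in place of 3024r lost MME, CD38 and JCHAIN. JCHAIN was also lost without NE42, FS21 or RB16. Over all B-cell lymphomas the methods' t-test lost PRDM1 (adjusted p = 0.0566), no filter and the fit of all 14 arrays lost MME (0.0726 and 0.0844), beside the arrays named above for it. CD38 passed in 7 and JCHAIN in 5 of 22 alternatives, with the smallest adjusted p under raised signals (0.00572 and 0.0103).

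Some differences that did not pass turned sign. LMO2 in the B-cell set was 0.091 with the mean of linear signals, 0.11 with the brightest probe set and between -0.45 and 0.14 with 1 array left out. Its E-J minus normal difference was 0.17 and 0.19 under the first 2 of these. PRDM1 in E-J minus K-N was -0.024 with log2(signal + 50) and -0.087 with raised signals. Between B-cell and T-cell labels, with 1 array left out, MME (0.58 with all arrays) ran from -0.060 to 1.84, XBP1 from -0.33 to 0.15 and JCHAIN (-0.25 with all arrays) from -0.67 to 0.42. JCHAIN there was 0.14 with log2(signal + 50), 0.38 with raised signals, 0.088 with linear means and 0.25 with the brightest probe set. Without RB07, RB10 and FS22, XBP1 was 0.28 and JCHAIN 0.80. Of all member tests over these alternatives, 455 kept direction and side of the threshold, 43 lost a call, 16 gained one and 14 changed sign. This tally takes in the fits without RB07 and RB10, and without these and FS22. Those arrays were left out for their expression after the data were seen, so calls gained there are no independent evidence. The array numbers limit every count, and dim genes (BACH2, SDC1, CD38 in E-J) have signals under 100 on many arrays. No paired analysis was possible because the groups hold different dogs and the labels number only the nodes of dog 3024, so that other replicate numbers merely name the arrays.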
